A study of Homo sapiens with 12 samples.

Results

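Complement is a cascade of plasma proteins and cell-surface receptors, and the 9 genes described here, C1QA, C1QB, C1QC, C3, CFB, CFD, CFP, C3AR1 and C5AR1, were chosen by symbol. All 9 were found among the 20307 genes of the deposited table. The series title concerns SPP1-positive, pro-angiogenic macrophages and the tumour cell protein DCBLD2, and its 12 RNA-seq libraries came from 2 established human cell lines in 4 groups of 3. THP-1, a line from a monocytic leukaemia whose cells become macrophage-like under the phorbol ester PMA, had the genotype label WT in both of its groups, was treated with PMA for 24 h and was then kept for 48 h with H1299 cells labelled DCBLD2 or with H1299 control cells. The THP-1 labels speak of supernatant and the design text of co-culture, so it is not settled whether the cells touched. H1299, a non-small-cell lung carcinoma line, was profiled with the genotype label DCBLD2 overexpression and with the genotype label WT, called control here, and no empty construct is named for the WT group. PMA was given in both THP-1 groups, so no library shows THP-1 cells without it. No label ties the replicates to separate cultures, so the p-values reflect the spread among these libraries alone, which may be technical.

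The classical pathway starts when C1q, built from the chains of C1QA, C1QB and C1QC, binds antibody or a surface. The alternative pathway runs on C3, on factor B (CFB), which factor D (CFD) cleaves, and on properdin (CFP), which stabilises the convertase that factor B forms with C3 fragments. The small fragments C3a and C5a signal through C3AR1 and C5AR1. Tissue macrophages are known as a main source of C1q, while hepatocytes make most plasma C3 and factor B.

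DCBLD2 itself went against the H1299 labels. Its level was 98.4 ± 6.03 TPM in H1299 libraries labelled DCBLD2 and 197 ± 49.4 TPM in H1299 libraries labelled control (SD, n = 3 each; TPM is a level per transcript length, scaled to the same total in each library). The log2 fold change from the estimated counts was -1.27 ± 0.17 (SE) by edgeR, at a p of 0.00284 adjusted over all tested genes. Groups are therefore named by their labels, and "higher" and "lower" refer to libraries labelled DCBLD2. In THP-1, DCBLD2 was lower too, at 6.47 ± 0.18 TPM in libraries labelled DCBLD2 and 11.9 ± 0.41 TPM in those labelled control (SD, n = 3 each). The log2 fold change there was -0.81 ± 0.05 (SE; edgeR, adjusted p = 3.18e-13). Total estimated reads lay between 18606739 and 26787853 per THP-1 library and between 14578887 and 23388187 per H1299 library. All 10 myeloid markers averaged at least 1 TPM in both THP-1 groups. Their summed level was 8246 to 8400 TPM in THP-1 labelled DCBLD2 and 6417 to 6477 TPM in THP-1 labelled control. In H1299 the keratins KRT8 and KRT18 were at means of 460 and 938 TPM in libraries labelled DCBLD2 and of 539 and 1379 TPM in those labelled control, while EPCAM averaged under 1 TPM and KRT19 was close to 0.

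In THP-1 cells, 2 of the 9 complement genes were higher and 3 lower in libraries labelled DCBLD2, and the other 4 had too few reads to test. Factor D showed the largest change of the 5 tested, 3.37-fold higher, and the C5a receptor C5AR1 was 1.61-fold higher. C3, properdin and the C3a receptor C3AR1 were lower, by 1.40-fold, 1.53-fold and 1.43-fold. These folds come from the counts and can differ from the ratios of the TPM levels. The 5 tested genes were all called at an adjusted p under 0.05, in a comparison in which 68.1% of 13120 tested genes were called, 34.5% higher and 33.6% lower. Being called was thus the usual outcome for a tested gene in this comparison. In such bulk samples, fewer cells of a kind and less RNA per cell cannot be told apart.

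**Figure D1:**
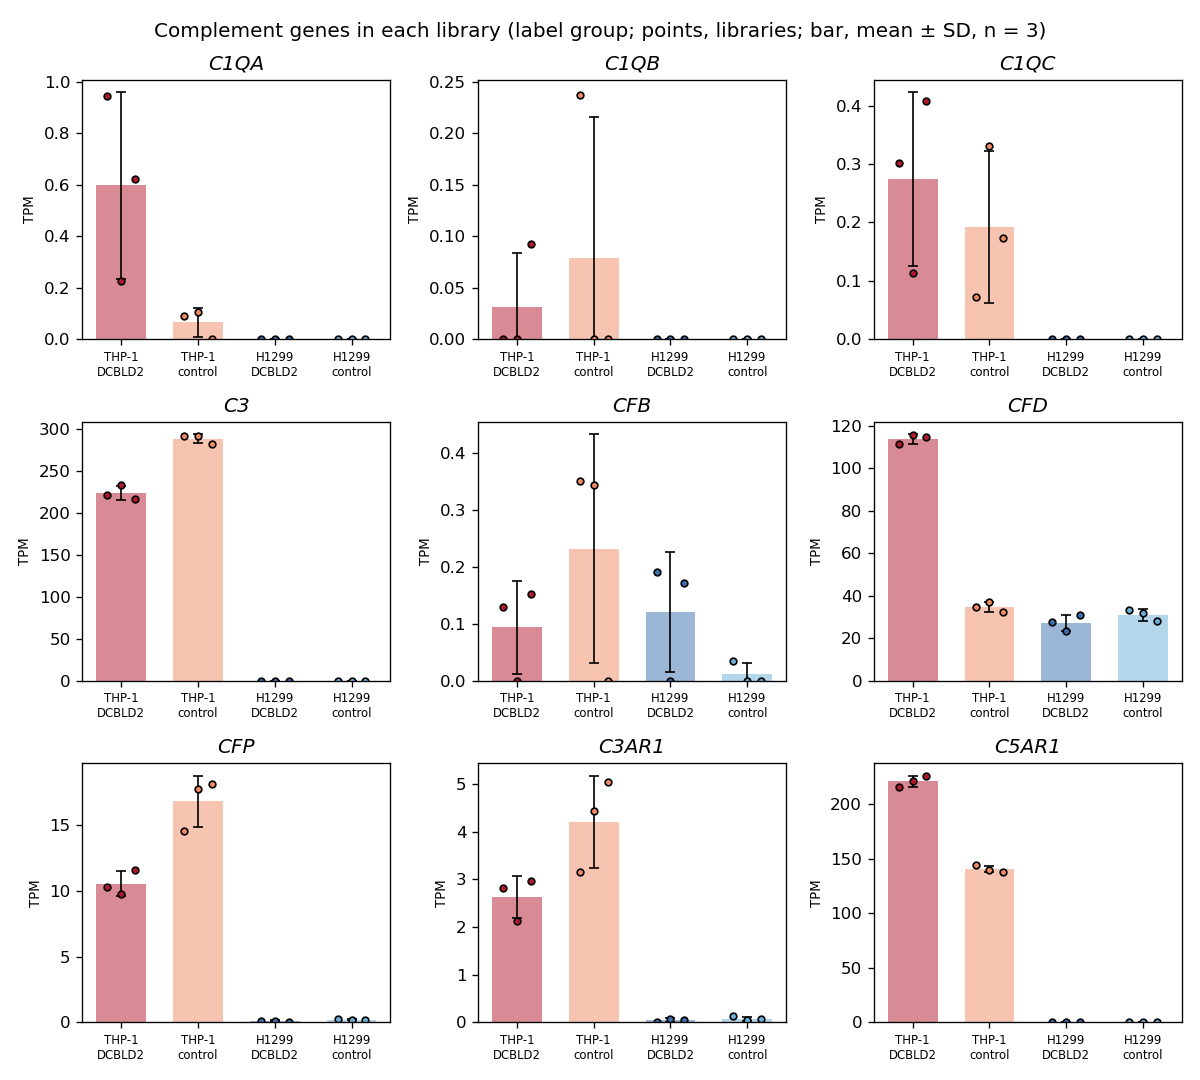
TPM of each complement gene (vertical axes, from 0 and scaled per gene) in the 4 label groups; points are libraries, bars group means and whiskers the SD (n = 3). Factor D lies between 111 and 116 TPM in THP-1 libraries labelled DCBLD2 and at 36.9 TPM or less in every other library, while the C1q chains and CFB stay below 1 TPM throughout.

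Among the components of the alternative pathway, C3 was the most abundant in both THP-1 groups. C3, the central protein that all complement routes cleave, had 222, 234 and 217 TPM in THP-1 labelled DCBLD2, against 292, 292 and 282 TPM in THP-1 labelled control. The groups did not overlap, and every library labelled DCBLD2 was lower. The quasi-likelihood test of edgeR gave a log2 fold change of -0.48 ± 0.02 (SE; adjusted p = 1.93e-18). On log2(TPM + 1) the change of C3 was smaller, at -0.36 (limma, adjusted p = 1.04e-05). C3 (ENSG00000125730) spans bases 6677704 to 6730562 of chromosome 19 in GRCh38, read from the minus strand, and overlaps GPR108 on the same strand in the GENCODE annotation, so reads in the shared stretch may have been assigned to either. GPR108 averaged 85.1 TPM in THP-1 labelled DCBLD2 and 97.4 TPM in THP-1 labelled control. C3 was among the better expressed genes, at rank 640 of 20307 by mean TPM in the labelled DCBLD2 group and rank 465 in the labelled control group.

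Factor D, the serine protease that cleaves factor B, had 111, 116 and 115 TPM in THP-1 labelled DCBLD2, against 34.6, 36.9 and 32.4 TPM in THP-1 labelled control. The groups were far apart relative to their spread. By edgeR this was a log2 fold change of 1.75 ± 0.05 (SE; adjusted p = 2.75e-21). CFD (ENSG00000197766) spans bases 859643 to 863630 of chromosome 19 (plus strand), with no overlapping gene in the annotation. H1299 cells express factor D too, and the levels of the 6 carcinoma markers that averaged over 1 TPM in both H1299 groups are therefore given as shares of the H1299 level. KRT18 stood at 0.108% in THP-1 labelled DCBLD2 and 0.0148% in THP-1 labelled control, and KRT8 at 0.114% in THP-1 labelled DCBLD2 and 0.0525% in THP-1 labelled control. AXL went the other way, at 1.15% in THP-1 labelled DCBLD2 and 3.42% in THP-1 labelled control, as did CAV1, at 46.8% in THP-1 labelled DCBLD2 and 51.6% in THP-1 labelled control. CDH2 gave 7.26% in THP-1 labelled DCBLD2 and 5.62% in THP-1 labelled control, and TGFB2 gave 279% in THP-1 labelled DCBLD2 and 51.7% in THP-1 labelled control. The markers thus disagree on direction, and the part of H1299 RNA in the factor D change was not tested.

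Properdin, the positive regulator of the alternative pathway, had 10.3, 9.73 and 11.6 TPM in THP-1 labelled DCBLD2, against 14.6, 17.7 and 18.1 TPM in THP-1 labelled control. Libraries labelled DCBLD2 all lay below those labelled control. For CFP edgeR gave a log2 fold change of -0.61 ± 0.09 (SE; adjusted p = 1.34e-06). The gene (ENSG00000126759) spans bases 47623172 to 47630305 of chromosome X (minus strand). It overlaps a processed transcript, AL009172.2, on the same strand in the annotation, which is not among the deposited genes.

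CFB, the protease component of the alternative pathway convertase, was close to absent from these libraries. It had 4, 0 and 4 reads in THP-1 labelled DCBLD2, against 5, 3 and 0 reads in THP-1 labelled control. In H1299 it had 2, 0 and 4 reads in the labelled DCBLD2 group, against 1, 0 and 0 reads in the labelled control group. With 8 reads over each THP-1 group, the ratio per read sequenced was 0.931, with a 95% interval of 0.305 to 2.85 (exact binomial, covering counting error only), so a difference was not detectable at this depth. In H1299 the ratio was 6.97, with limits of 0.846 and 321. CFB (ENSG00000243649) spans bases 31945650 to 31952084 of chromosome 6 (plus strand), and overlaps C2 and a read-through gene on the same strand, so its reads could in part be counted there.

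Among the receptors, C5AR1 and C3AR1 changed in opposite directions. C5AR1, the receptor of C5a, had 216, 221 and 226 TPM in THP-1 labelled DCBLD2, against 144, 140 and 138 TPM in THP-1 labelled control. All 3 labelled DCBLD2 libraries were above all 3 labelled control libraries. By edgeR this was a log2 fold change of 0.69 ± 0.02 (SE; adjusted p = 3.93e-19). C5AR1 (ENSG00000197405) spans bases 47290023 to 47322066 of chromosome 19 (plus strand). C3AR1, the receptor of C3a, had 2.82, 2.13 and 2.96 TPM in THP-1 labelled DCBLD2, against 3.15, 4.44 and 5.04 TPM in THP-1 labelled control. The groups did not overlap in TPM, but the nearest libraries lay close together. The gene had 105, 112 and 108 reads in the labelled DCBLD2 group and 140, 137 and 139 reads in the labelled control group. Scaled to each library's total, these were 4.26, 4.18 and 5.80 CPM in the labelled DCBLD2 group and 5.81, 6.49 and 6.93 CPM in the labelled control group, so the nearest libraries all but met. By edgeR this was a log2 fold change of -0.51 ± 0.14 (SE; adjusted p = 0.00168). C3AR1 (ENSG00000171860) spans bases 8058302 to 8066471 of chromosome 12 (minus strand).

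The groups of the 5 tested genes did not overlap in TPM, which held for 64.9% of the 13120 genes tested in THP-1. Measured against a change of 1.5-fold instead of any change, edgeR called 2 of them, CFD and C5AR1, and 1503 genes in all. The spread between replicates was small in THP-1, with a common coefficient of variation beyond counting noise of 1.96% in THP-1 and 13.3% in H1299. With the H1299 spread for every gene, 4531 genes were called in THP-1, and the 5 complement genes kept adjusted p-values of 0.0267 or less by edgeR's likelihood ratio test.

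Other measures moved with the THP-1 groups, beside each of these changes. The share of reads from mitochondrially encoded genes was 2.46% to 2.58% in THP-1 labelled DCBLD2 and 3.48% to 3.51% in THP-1 labelled control, and that of ribosomal protein genes was 5.14% to 5.42% in the labelled DCBLD2 group and 3.73% to 3.75% in the labelled control group. The myeloid marker sum given above was higher in the labelled DCBLD2 group, with 7 of the 10 markers higher by mean TPM and 3 lower (ITGB2, CD68 and CD33). Most of the difference came from FCER1G, at 2166 TPM in THP-1 labelled DCBLD2 and 1249 TPM in THP-1 labelled control, and TYROBP, at 1733 TPM in THP-1 labelled DCBLD2 and 869 TPM in THP-1 labelled control. The sum of 8 carcinoma markers was 123 to 132 TPM in THP-1 labelled DCBLD2 and 170 to 179 TPM in THP-1 labelled control, most of it CAV1. Of the 8, 5 averaged at least 1 TPM in the labelled DCBLD2 group and 4 in the labelled control group, and EPCAM and KRT19 were at 0 in both. The sum of 5 lymphocyte markers was 1.02 to 1.59 TPM in the labelled DCBLD2 group and 3.34 to 4.14 TPM in the labelled control group, with CD3E, CD2 and MS4A1 at 0. That of 4 hepatocyte markers was 0.715 to 1.31 TPM in the labelled DCBLD2 group and 1.91 to 3.48 TPM in the labelled control group, with FGB at 0. That of 4 endothelial markers was 141 to 150 TPM in the labelled DCBLD2 group and 171 to 174 TPM in the labelled control group, nearly all of it PECAM1, which myeloid cells also express. The part of any of these in the complement changes was not tested.

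The C1q chains were at or near the detection limit in the THP-1 libraries. C1QA had 13, 3.36 and 7 estimated reads in THP-1 labelled DCBLD2, against 1, 1 and 0 in THP-1 labelled control. Rounded to whole reads, this is 23 against 2, or 10.7 times as many for the reads sequenced, with 95% counting limits of 2.65 and 93.7 (exact binomial). The gene did not pass the filter on low counts, and without that filter edgeR gave an adjusted p of 0.00265. C1QC had 5, 2 and 5 reads in THP-1 labelled DCBLD2, against 1, 4 and 2 reads in THP-1 labelled control, and the groups overlapped. Scaled to the reads sequenced, the ratio was 1.60, with counting limits of 0.580 and 4.79. C1QB had 0, 0 and 1 read in THP-1 labelled DCBLD2, against 3, 0 and 0 reads in THP-1 labelled control. All 3 chains are needed for the C1q protein, and none reached a mean of 1 TPM in either THP-1 group. The genes lie next to each other on the plus strand of chromosome 1: C1QA at 22636506 to 22639608, C1QC at 22643630 to 22648110 and C1QB at 22652762 to 22661538.

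By mean TPM the order in THP-1 labelled DCBLD2 was C3, C5AR1, CFD, CFP, C3AR1, C1QA, C1QC, CFB and C1QB. C3 and C5AR1, at 224 ± 8.49 and 221 ± 5.18 TPM (SD, n = 3 each), overlapped in their libraries, as did neighbours from C1QA downwards, while the other neighbours were separate. In THP-1 labelled control the order was C3, C5AR1, CFD, CFP, C3AR1, CFB, C1QC, C1QB and C1QA, and neighbours overlapped only from CFB downwards. C3 stood at 289 ± 5.53 TPM and C5AR1 at 141 ± 2.89 TPM there (SD, n = 3 each).

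In H1299 cells factor D was the only one of the 9 genes with a substantial level. CFD had 27.5, 23.4 and 31.0 TPM in H1299 labelled DCBLD2, against 33.2, 31.6 and 28.0 TPM in H1299 labelled control. The groups overlapped, whereas they did not for 37.5% of the genes tested in H1299. The test of edgeR gave a log2 fold change of -0.17 ± 0.16 (SE; 95% interval -0.53 to 0.19; adjusted p = 0.471). So 0 of the 1 tested complement gene was called, where 20.9% of 12773 genes were. The count was 0 at an unadjusted p under 0.05 by edgeR as well, and 0 by DESeq2 (adjusted p of 0.530). That background count, 2669 genes, fell to 514 without labelled DCBLD2 replicate 2, to 1374 without labelled DCBLD2 replicate 1 and to 1649 without labelled control replicate 3.

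The other 8 genes did not pass the count filter in H1299. C3 had 0, 2 and 0 reads in the labelled DCBLD2 group, against 1, 2 and 1 in the labelled control group. C5AR1 had 1, 3 and 4 reads in the labelled DCBLD2 group, against 1, 1 and 3 in the labelled control group. For C3AR1 these were 0, 3 and 2 reads in the labelled DCBLD2 group, against 5, 2 and 3 in the labelled control group. Such numbers are too low to tell the groups apart. CFP had 1, 1 and 0 reads in H1299 labelled DCBLD2, against 4, 4 and 4 in H1299 labelled control. Scaled to the reads sequenced this is a ratio of 0.194, with counting limits of 0.0210 and 0.870. CFP reached an adjusted p of 0.0377 when all 12 libraries were fitted together, and 0.165 in the H1299 libraries alone without a filter (edgeR). C1QA, C1QB and C1QC had 0 reads in all 6 H1299 libraries, which allows a level of up to 0.0253 CPM by a floor of 3 counts over the 118496256 reads of the cell line.

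Between the cell lines, THP-1 labelled control had more of all 5 testable genes than H1299 labelled control, where 85.9% of 14244 genes were called, 42.3% higher and 43.6% lower. For C3, C5AR1, CFP and C3AR1 the H1299 side held at most 5 reads per library, so no fold is given. Factor D was at 34.6 ± 2.27 TPM in THP-1 labelled control and 30.9 ± 2.68 TPM in H1299 labelled control (SD, n = 3 each). In counts CFD was higher by 0.71 ± 0.12 (SE) on the log2 scale (edgeR, adjusted p = 3.73e-05). On log2(TPM + 1) the difference was 0.16 (limma, adjusted p = 0.137), so the call rests on the unit; the median of all genes stood at -0.24 on that scale and at -0.03 in counts. Cell line, PMA and medium cannot be told apart in this comparison.

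The change of factor D differed between the cell lines. The change in THP-1 minus that in H1299 was 1.91 ± 0.16 (SE) on the log2 scale, with an adjusted p of 1.96e-06 by edgeR in a fit of all 12 libraries. Of the 5 tested complement genes, 1 was called in this difference, against 38.7% of 14244 genes, 19.3% with a higher and 19.5% with a lower change in THP-1. For C3, C5AR1, C3AR1 and CFP the H1299 part rests on 0 to 5 reads per library, so the size of any difference is poorly measured.

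Upstream sequence of the genes that moved is given from RefSeq (GRCh38.p14), where 7 of the 9 genes have entries and C3 and C1QC have none. The windows are the 250 bases before the annotated start, written 5′ to 3′ on the strand of the gene. The RefSeq start can lie inside the GENCODE span given above, as it does for C5AR1. They are shown for the 2 genes that were higher (CFD, C5AR1), for 2 that were lower (C3AR1, CFP) and for CFB, which was near 0. Capitals mark matches to GAGGAA, the core of the binding site of the myeloid factor PU.1, to the interferon-stimulated response element (ISRE, spaced GAAA repeats), to TTCNNNGAA, the STAT motif, or to TTGCNNAA, a C/EBP motif, each searched on both strands.
CFD chr19:859414-859663 (plus strand): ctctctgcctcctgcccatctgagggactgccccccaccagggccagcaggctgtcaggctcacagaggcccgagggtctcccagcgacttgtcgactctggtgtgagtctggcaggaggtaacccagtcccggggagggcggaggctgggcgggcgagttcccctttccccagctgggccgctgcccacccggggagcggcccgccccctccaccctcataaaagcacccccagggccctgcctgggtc
C5AR1 chr19:47309611-47309860 (plus strand): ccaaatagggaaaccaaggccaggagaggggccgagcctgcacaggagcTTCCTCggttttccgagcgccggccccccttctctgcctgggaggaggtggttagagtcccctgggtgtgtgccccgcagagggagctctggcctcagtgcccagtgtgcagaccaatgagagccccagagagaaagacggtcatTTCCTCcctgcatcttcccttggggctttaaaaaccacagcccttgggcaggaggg
C3AR1 chr12:8066360-8066609 (minus strand): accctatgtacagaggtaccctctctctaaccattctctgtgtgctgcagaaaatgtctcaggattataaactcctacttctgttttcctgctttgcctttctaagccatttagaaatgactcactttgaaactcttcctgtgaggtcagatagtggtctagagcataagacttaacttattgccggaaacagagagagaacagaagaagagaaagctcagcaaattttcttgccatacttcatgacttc
CFP chrX:47629931-47630180 (minus strand): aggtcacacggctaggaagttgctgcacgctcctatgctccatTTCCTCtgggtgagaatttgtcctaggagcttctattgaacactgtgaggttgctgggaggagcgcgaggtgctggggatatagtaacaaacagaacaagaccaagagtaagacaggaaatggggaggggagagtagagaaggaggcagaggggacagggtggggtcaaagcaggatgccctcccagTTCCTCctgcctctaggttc
CFB chr6:31945845-31946094 (plus strand): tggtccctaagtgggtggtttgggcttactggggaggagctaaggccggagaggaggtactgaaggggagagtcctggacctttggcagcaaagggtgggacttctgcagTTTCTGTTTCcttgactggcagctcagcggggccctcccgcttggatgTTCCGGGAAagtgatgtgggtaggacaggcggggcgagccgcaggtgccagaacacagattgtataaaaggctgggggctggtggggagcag

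C5AR1 held GAGGAA 2 times, on the opposite strand, starting 201 and 56 bases before the start. In CFP it occurred 2 times as well in this window, at 207 and 20 bases, and not in the other RefSeq window of CFP, which ends at chromosome X position 47630555. Of all 35116 windows of this length, 23.6% held GAGGAA. The windows of CFD and C3AR1 held none of the 4 motifs. CFB held the ISRE on the opposite strand at 140 bases and TTCNNNGAA at 92 bases, which 3.02% and 6.57% of windows hold, and these 2 matches did not overlap. TTGCNNAA was found in 9.05% of windows and in those of C1QA and C1QB. TTCNNNGAA was also found in both windows of C1QA, but these windows overlap and the match is the same stretch in both. A match describes letters only, and no match says only that the letters are not in this window.

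Around the 9 genes, 48 other complement genes in 5 lists were measured in THP-1, of which 21 passed the count filter. Of these, 6 were higher, 10 lower and 5 not called, against a background of 34.5% higher and 33.6% lower. They are given by role, with levels in TPM and log2 fold changes from edgeR.

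**Figure D2:**
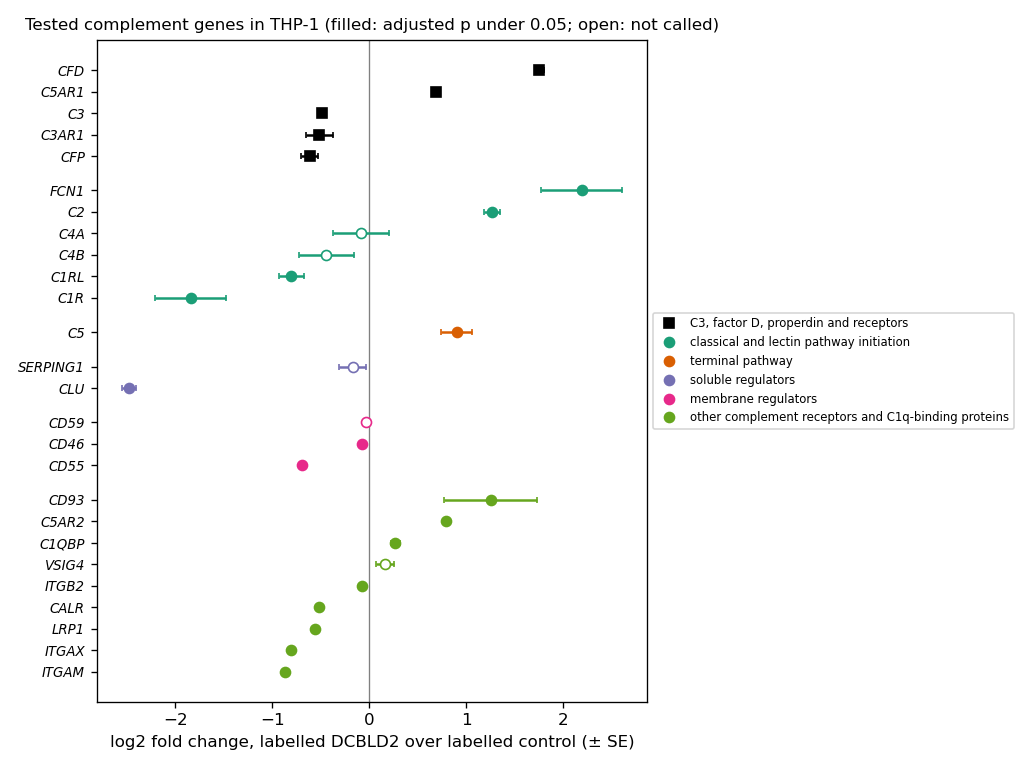
Log2 fold change (± SE, horizontal axis) of the complement genes tested in THP-1, labelled DCBLD2 over labelled control, 3 libraries each; squares are the 5 tested genes of the 9, circles the other lists, and filled symbols have an adjusted p under 0.05 (edgeR). CFD lies at 1.75 and CLU at -2.48.

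Among 15 genes that start the classical and lectin pathways, 6 were tested, 2 were higher and 2 lower, with a median log2 fold change of -0.26. C2, the protease of the classical convertase and the neighbour of CFB, had 18.5, 16.3 and 16.1 TPM in THP-1 labelled DCBLD2, against 7.44, 6.20 and 8.17 TPM in THP-1 labelled control. The groups did not overlap, and C2 was higher by 1.26 ± 0.08 (SE) on the log2 scale, with an adjusted p of 5.16e-13 (edgeR). C1RL, a C1r-like protease, had 4.55, 2.61 and 4.07 TPM in the labelled DCBLD2 group, against 5.14, 6.41 and 5.70 TPM in the labelled control group, and was lower by a log2 fold change of -0.80 ± 0.13 (SE). C4A and C4B, whose near-identical sequences make their estimated counts uncertain, were not called. In the terminal pathway, C5 alone of 7 genes was tested. C5, whose cleavage yields the ligand of C5AR1, had 1.19, 1.40 and 1.49 TPM in the labelled DCBLD2 group, against 0.810, 0.699 and 0.699 TPM in the labelled control group. It was higher by 0.90 ± 0.16 (SE) on the log2 scale, with an adjusted p of 2.85e-05 (edgeR).

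Of 12 soluble regulators, 2 were tested, with 0 higher and 1 lower. CLU, clusterin, a secreted chaperone that restrains the terminal complex, had 14.4, 10.9 and 15.7 TPM in THP-1 labelled DCBLD2, against 67.0, 77.6 and 59.2 TPM in THP-1 labelled control. It had the largest fall of the tested complement genes in THP-1, with a log2 fold change of -2.48 ± 0.07 (SE). Of 4 membrane regulators, 3 were tested and 2 were lower. CD55, decay-accelerating factor, which breaks up the convertases, had 114, 113 and 108 TPM in the labelled DCBLD2 group, against 196, 181 and 187 TPM in the labelled control group, a log2 change of -0.69 ± 0.02 (SE). CD46, a cofactor for C3b cleavage, was lower by a log2 fold change of -0.07 ± 0.03 (SE), with an adjusted p of 0.0181 (edgeR). This call was lost in 8 of 17 alternatives, 1 of them the 1.5-fold threshold. The adjusted p became 0.0598 with DESeq2 and 0.0622 without a filter (edgeR). By edgeR it was 0.0556 and 0.0815 without labelled DCBLD2 replicates 1 and 2, and 0.0783 without labelled control replicate 3. It was 0.683 with all 12 libraries in 1 fit (edgeR) and 0.756 with the H1299 spread (likelihood ratio test).

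Of 10 other receptors and C1q-binding proteins, 9 were tested, 3 were higher and 5 lower, with a median log2 fold change of -0.07. C5AR2, the second receptor of C5a, had 102, 101 and 101 TPM in THP-1 labelled DCBLD2, against 57.8, 61.9 and 60.4 TPM in THP-1 labelled control. It was higher by 0.79 ± 0.03 (SE) on the log2 scale, as C5AR1 was by 0.69. The integrin alpha chains of the C3 fragment receptors CR3 and CR4 were lower. ITGAM had 69.7, 69.0 and 70.4 TPM in the labelled DCBLD2 group, against 131, 130 and 134 TPM in the labelled control group, a log2 change of -0.87 ± 0.02 (SE). ITGAX had 184, 192 and 190 TPM in the labelled DCBLD2 group, against 326, 334 and 328 TPM in the labelled control group, a log2 change of -0.80 ± 0.02 (SE). LRP1, an endocytic receptor that takes part in uptake of C1q-tagged cells, had 26.2, 27.0 and 27.8 TPM in the labelled DCBLD2 group, against 41.2, 40.6 and 39.8 TPM in the labelled control group, a log2 change of -0.56 ± 0.02 (SE).

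In H1299, 14 of the 48 other genes were tested, 4 were higher, 1 was lower and 9 were not called, where 10.3% of all tested genes were higher and 10.6% lower.

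**Figure D3:**
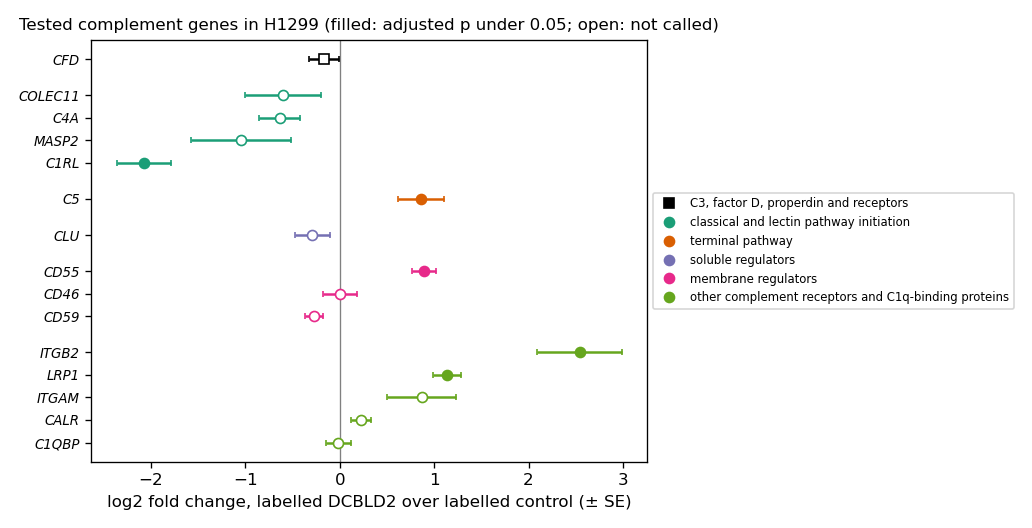
Log2 fold change (± SE, horizontal axis) of the complement genes tested in H1299, labelled DCBLD2 over labelled control, 3 libraries each; the square is CFD, circles are the other lists, and filled symbols have an adjusted p under 0.05 (edgeR). CFD lies at -0.17 and is open, and C1RL lies at -2.07.

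C1RL had 0.785, 0.657 and 0.753 TPM in H1299 labelled DCBLD2, against 3.23, 1.90 and 3.09 TPM in H1299 labelled control, and was lower by a log2 value of -2.07 ± 0.29 (SE; edgeR, adjusted p = 0.00291). C5 had 3.09, 3.12 and 2.63 TPM in the labelled DCBLD2 group, against 2.24, 0.908 and 1.54 TPM in the labelled control group. It was higher by 0.86 ± 0.24 (SE) on the log2 scale (edgeR, adjusted p = 0.0344). The call of C5 was lost in 7 of 16 alternatives, in which its log2 fold change lay between 0.61 and 1.16 over all 16. Among the losses were the fits without labelled control replicate 3 (adjusted p of 0.0876) and without labelled DCBLD2 replicate 1, 2 or 3 (0.0882, 0.114 and 0.0685, edgeR). CD55 had 28.0, 35.6 and 30.5 TPM in H1299 labelled DCBLD2, against 16.8, 17.5 and 17.6 TPM in H1299 labelled control, and was higher by 0.90 ± 0.13 (SE) on the log2 scale. LRP1 had 9.17, 11.3 and 11.2 TPM in the labelled DCBLD2 group, against 5.76, 4.63 and 4.37 TPM in the labelled control group, and was higher by 1.14 ± 0.15 (SE). C1RL thus fell and C5 rose in both cell lines, while CD55 and LRP1 moved in opposite directions in them. In THP-1 the calls of C1RL, C5 and LRP1 were each lost in 1 of 17 alternatives, the 1.5-fold threshold. In H1299 the call of CD55 was lost in 1 of 16. The directions stayed the same in every alternative.

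Genes with the pattern most like that of the complement genes were sought over the 12 libraries by Pearson correlation on log2(TPM + 1), among 12489 genes with a mean of at least 1 TPM. The points share 2 cell lines and 4 groups, so the correlations mainly rank genes by the difference between lines. For C3 the 3 nearest were GPR84 (0.9999), WDFY4 (0.9999) and CAP1 (0.9998), and 974 genes lay above 0.99. For the mean of the 3 C1q chains, which rests on few reads, they were CBFA2T3 (0.934), ELANE (0.908) and EVA1A (0.903), and 4 genes lay above 0.9.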

How the data were processed

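RNA-seq of 12 libraries was analysed. Trizol served for RNA extraction and a NEBNext Ultra kit for the mRNA libraries, per the labels' protocols. Per the submitters' processing notes, RSEM, StringTie 1.3.1, HISAT2, Bowtie2 2.2.8 and fastp 0.18.0 were used with hg38, in no stated order. No source used here gives the annotation release or strand setting. The authors deposited estimated counts, not normalized, and TPM values per gene, of 20307 genes.

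After rounding to whole numbers, the estimated counts were tested with edgeR 4.0.16 (R 4.3.3; glmQLFit and glmQLFTest, TMM, filterByExpr minimum of 10 counts), in 1 fit of 6 libraries per cell line. A fit of all 12 served the comparison between lines and the difference of changes. P-values were adjusted by Benjamini-Hochberg over all tested genes, and calls are at 0.05. TPM gives levels, and fold changes come from the counts. The steps were also run on simulated counts, drawn independently and with few genes changed. That setting differs from THP-1, where most tested genes were called, so the run does not check that comparison. Positions come from GENCODE release 29, which holds 98.9% of the gene identifiers.

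The 9 genes and the lists were chosen with earlier results of these data known. Beside the 9 and DCBLD2, each list's called genes with the largest changes are named, up to 4, where the higher group averaged at least 1 TPM, and up to 3 genes of like pattern. Alternatives were a replicate block, leaving out each library, all 12 libraries in 1 fit, DESeq2 1.42.0, edgeR with DESeq2 size factors, with robust spread, without a filter or with a minimum mean of 10 counts, limma 3.58.1 on log2(TPM + 1) or log2(TPM + 0.1), a 1.5-fold threshold, voom with group weights, and the H1299 spread in THP-1.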

Additional observations from a re-analysis of the deposited data

Results flagged for a closer look

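These complement genes passed a test of the difference between the change in THP-1 and that in H1299 (edgeR, 12 libraries, adjusted p under 0.05), given as the log2 change in THP-1 minus that in H1299. Of all 14244 tested genes, 38.7% passed it. Of the 9 genes, 5 were tested and 1 passed. Among 23 other tested complement genes, 1 had a higher and 9 had a lower change in THP-1. Factor D (CFD) differed by 1.91. C1RL differed by 1.26, and its call was lost in 1 of 21 alternatives, limma on log2(TPM + 1), where the value was 0.56 (adjusted p of 0.0844). CLU differed by -2.20, CD55 by -1.60, LRP1 by -1.72 and CALR by -0.75.

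For another 5 genes the H1299 part rests on 0 to 24 reads per library, so the size of the difference is poorly measured. C1R had a fitted value of -2.88, ITGAM of -1.78, ITGB2 of -2.63 and ITGAX, with at most 4 reads per H1299 library, of -3.00. On log2(TPM + 1) these were -0.66 for C1R, -1.09 for ITGAM, -0.58 for ITGB2 and -0.90 for ITGAX (limma). SERPING1 had a fitted value of -1.40 with an adjusted p of 0.0454 (edgeR), which lay between 0.0607 and 0.253 in the 13 of 21 alternatives that lost its call.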

How the results depend on the processing

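In THP-1, the 5 calls among the complement genes held in 16 of 17 alternatives. Without a filter 6 complement genes were called, C1QA being the added one, where 9157 of 16937 genes were called in all. Against a 1.5-fold change the count was 2 (1503 genes in all), and with the H1299 spread 4531 genes were called. Leaving out 1 library gave 5 of the complement genes and 8467 to 8719 genes. In H1299 the count was 0, and 1 (CFP) with all 12 libraries in 1 fit, where 5056 genes were called, while 134 passed against a 1.5-fold change. Leaving out 1 library gave 514 to 3158 genes, with 0 complement genes called throughout, and the cause was not tested. The difference of changes called 1 gene, and 4 on log2(TPM + 1), where C3 (-0.36), C5AR1 (0.59) and CFP (-0.47) took the opposite sign; H1299 libraries had at most 4 reads of each. CFD kept its direction and side of the threshold in every alternative of the THP-1 and H1299 comparisons and of their difference.

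The replicate numbers were not used to pair the samples in the main fits. Same-numbered libraries correlated in their deviations at 0.036 to 0.065 in THP-1, weakly, though each correlated best with its own number. In H1299 same-numbered libraries correlated at -0.263 to -0.121. With the replicate block 8990 genes were called in THP-1 and 1797 in H1299, and the complement calls stayed at 5 and 0.

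Depth limits C1q and CFB, with at most 13 reads per library, and the other low genes of H1299.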
